A study of Danio rerio with 12 samples.

Results

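The genes of tubulins and of the proteins that fold, modify and hold them were followed in dorsal forerunner cells (DFCs) of the zebrafish gastrula, the cells that later form the ciliated Kupffer's vesicle. The 50 genes were taken by name from the 31953 genes of the deposited table, as those whose symbol begins with tuba, tubb, tubd, tube, tubg, ttll, agbl, atat1 or stmn, or is tbca, tbcb, tbcc, tbcd or tbce. No measured value entered this choice. The unit is the normalized count, the reads of a gene divided by a factor that evens out the depth of its library. A mean of at least 1 normalized count over the 12 libraries was reached by 46 of the 50 genes, and atat1, stmn2b, stmn3 and ttll2 stayed under it and were not tested. A ttll5 gene, a stmnd1 gene and a further tube1 gene bear these names only in a reference list and have no symbol in the table, so they are not among the 50.

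Microtubules are polymers of dimers of α- and β-tubulin, which the chaperonin CCT and the tubulin binding cofactors A to E fold and join. γ-Tubulin complexes start new microtubules, and δ- and ε-tubulin are needed for the triplet microtubules of centrioles, from which the basal bodies of cilia are made. In the axoneme of a cilium the tubulin tails carry side chains of glutamate or glycine, which tubulin tyrosine ligase-like (TTLL) enzymes add. Cytosolic carboxypeptidases, the products of the agbl genes, trim the glutamates.

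Vgll4l, a transcription cofactor of the Vestigial-like family, and Yap and Taz, the cofactors of the Hippo pathway, had been knocked down with morpholinos, and the comparisons ask which RNAs of the DFC cluster then differ. All embryos were of the Tg(sox17:GFP) line and received their morpholino as 1-cell embryos. Control embryos received 8 ng of a standard morpholino, and the others either 4 ng of the Vgll4l morpholino or 4 ng of the Yap morpholino together with 4 ng of the Taz morpholino. Each of the 3 groups has 4 libraries, each from a single fluorescent cluster cut out at 90% epiboly. A morpholino given at this stage reaches the whole embryo, the cluster was freed by hand, and the transgene also marks endoderm.

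Control libraries held 4487894 to 6148871 reads on genes, Vgll4l knockdown libraries 8698990 to 11235726 and Yap/Taz knockdown libraries 9071323 to 10774775. The vgll4l RNA had 6694 to 7266 normalized counts in control libraries, 1016 to 1107 after Vgll4l knockdown and 1556 to 1677 after Yap/Taz knockdown. yap1 had 2122 to 2391, 1368 to 1547 and 1738 to 1802 in the same order, and wwtr1, the gene of Taz, was at 0 in control and at 0.977 to 3.82 and 6.39 to 11.3 in the knockdowns, higher in the libraries labelled for its own knockdown than in control. A morpholino acts on splicing or translation, so these levels do not measure the knockdown. The DFC markers were present in every group, with 107800.4 to 117813 summed normalized counts in control, 36975 to 39853 after Vgll4l knockdown and 43559 to 44056 after Yap/Taz knockdown. Of 8 tested 8 and 6 fell and none rose. The knocked-down gene vgll4l is itself among these markers and falls. In the markers of the enveloping layer, the epithelium over the embryo, the sums were 37441 to 38821, 321647 to 392151 and 55577 to 56463 in the same order. Of 12 tested, 10 were higher and 1 lower for Vgll4l, against 3 higher and 2 lower for Yap/Taz. The markers of the yolk syncytial layer summed to 2861 to 3092, 14581 to 15203 and 33420.4 to 33787, where 6 and 7 of 8 rose and none fell. Shares over all genes tested were 30.5% higher and 40.9% lower for Vgll4l, and 30.0% higher and 38.7% lower for Yap/Taz. The enveloping layer rises for Yap/Taz were not above that share. Of these 3 lists, dand5 (DFC) was at 0 in both knockdowns and apoea (yolk syncytial layer) at 0 in control and Yap/Taz libraries. The part of these other cell types in the values of the tubulin genes was not tested, and in such bulk samples fewer cells of a type and less RNA per cell cannot be told apart. Vgll4l replicate 2 stood apart from the other Vgll4l libraries, and control replicates 1 and 2 were closer to each other than to replicates 3 and 4.

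After Vgll4l knockdown, 35 of the 46 tested genes passed the test, 18 higher and 17 lower than control (limma, adjusted p under 0.05 and a log2 fold change of at least 1 in size). Of all 17609 genes tested 71.4% passed, 30.5% higher and 40.9% lower, so the share of the tubulin genes that passed, 76.1%, was near that of all genes. After Yap/Taz knockdown 28 of the 46 passed, 11 higher and 17 lower, which is 60.9% of them, where 68.7% of all genes passed, 30.0% higher and 38.7% lower. The 4 control libraries did not overlap with the 4 knockdown libraries for 35 of the 46 genes in either comparison. For Vgll4l these were 18 genes above and 17 below control, where 79.2% of all genes did not overlap, 35.0% above and 44.2% below. For Yap/Taz they were 16 above and 19 below, where the share of all genes was 80.9%, 36.5% above and 44.4% below. The median log2 fold change of the 46 genes was -0.01 for Vgll4l and -0.24 for Yap/Taz knockdown, and that of all genes was -0.26 and -0.27. Scaling by TMM moved the median of all genes to -0.09 and -0.16.

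Both comparisons use the same control libraries, so the calls are given side by side and nothing is read from how many genes they have in common. Each comparison called stmn4l, tbca, tbcb, tuba4l, tuba8l3, tubd1 and tubgcp5 higher, and each called AGBL1, agbl2, agbl4, stmn2a, tbcd, tbce, ttll3, ttll7, ttll10, ttll11, tubb1, tubb5 and tubg1 lower. 3 genes, tbcc, tuba1c and tubgcp4, were higher after Vgll4l and lower after Yap/Taz knockdown, and ttll1 was lower after Vgll4l and higher after Yap/Taz knockdown. Tested directly against each other, the knockdowns differed for 27 of the 46 genes, 14 higher and 13 lower in the Vgll4l libraries, which is 58.7% of them beside 63.2% of all genes, 30.0% higher and 33.2% lower. The libraries of the knockdowns did not overlap for 31 genes, 18 above and 13 below in the Vgll4l libraries, against 75.3% of all genes, 36.4% above and 38.9% below.

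**Figure D1:**
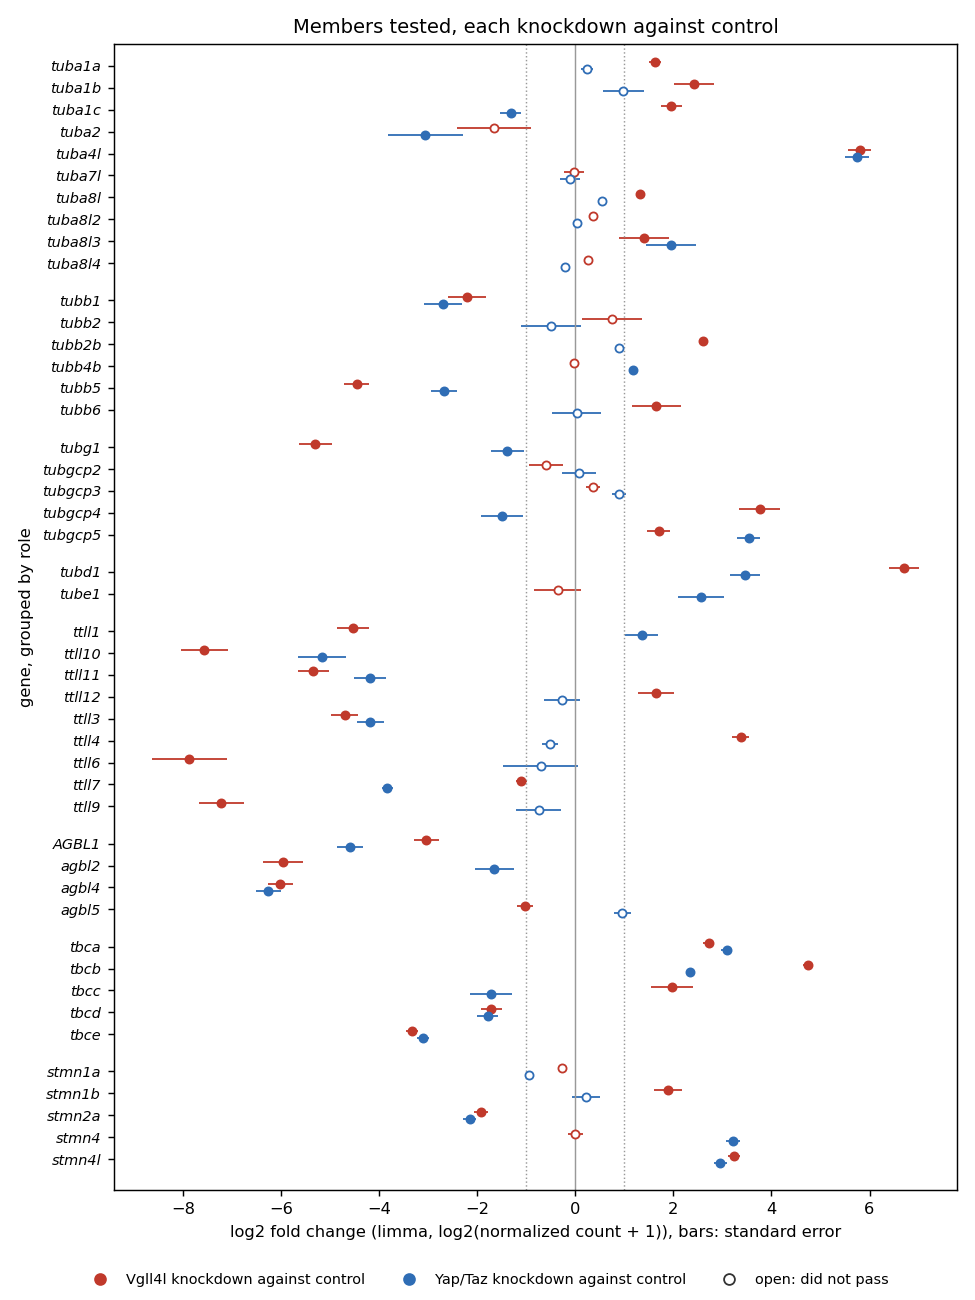
Log2 fold change of the 46 tested genes after Vgll4l knockdown (red) and Yap/Taz knockdown (blue) against control, on the log2(normalized count + 1) scale, with bars for the standard error, dotted lines at a log2 fold change of 1 in either direction, and open symbols for values that did not pass. For Vgll4l knockdown the TTLL and carboxypeptidase genes lie mostly to the left, and ttll6 and ttll9 are far apart between the knockdowns.

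The α-tubulin genes, which encode the subunit that carries the acetylated lysine and the detyrosinated tail, were higher or did not pass after Vgll4l knockdown. Of the 10 tested, 6 rose and none fell (median log2 fold change 1.36), and after Yap/Taz knockdown 2 rose and 2 fell (median 0.13). Among all genes 30.5% were higher and 40.9% lower for Vgll4l, and 30.0% higher and 38.7% lower for Yap/Taz knockdown. tuba8l4 (ENSDARG00000006260) took most of the α-tubulin reads, with 3537, 3838, 4524 and 4478 normalized counts in the control libraries, 4750.5, 4966, 4822 and 4915 after Vgll4l knockdown and 3551, 3429, 3522 and 3522 after Yap/Taz knockdown. All Vgll4l libraries lay above all control libraries, yet the difference was small, with a log2 fold change of 0.26 and a standard error (SE) of 0.06, and under the fold threshold, as was the value after Yap/Taz knockdown (-0.22, SE 0.06). tuba8l2 (ENSDARG00000031164) had 716, 775, 764 and 718 in control, 936, 946, 941 and 975 after Vgll4l and 747, 812, 737 and 727 after Yap/Taz knockdown. Its Vgll4l libraries were also above the controls without reaching the threshold (log2 fold change 0.35), and its Yap/Taz libraries overlapped with them.

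tuba4l (ENSDARG00000074289), an α-tubulin gene related by name to human TUBA4A, was close to absent in control clusters and present in both knockdowns. It had 4.86, 3.05, 3.38 and 1.18 normalized counts in control, 219, 189, 239 and 217 after Vgll4l and 209, 198, 224 and 196 after Yap/Taz knockdown. The knockdown libraries overlapped with each other and lay far above every control library. It rose by 5.80 log2 units with Vgll4l knocked down (SE 0.24, adjusted p = 3.7e-11, 69.3-fold) and by 5.74 after Yap/Taz knockdown (SE 0.24, adjusted p = 4.2e-11, 66.3-fold). The difference between the knockdowns was 0.06 with a standard error of 0.24 (adjusted p = 0.85).

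tuba8l (ENSDARG00000042708) had 266, 323, 351 and 332 in control, 808, 726, 806 and 842 after Vgll4l and 462, 461, 444 and 482 after Yap/Taz knockdown. The 3 groups did not overlap, with the controls lowest. It rose 2.50-fold after Vgll4l knockdown (1.33 in log2 units, SE 0.08, adjusted p = 2.1e-09), while the value after Yap/Taz knockdown (0.55 in log2 units) was under the threshold. tuba1a (ENSDARG00000001889), whose human counterpart is the main α-tubulin gene of neurons, had 93.9, 109.9, 125 and 152 in control, 357, 394, 372 and 348 after Vgll4l and 148, 133, 136 and 143 after Yap/Taz knockdown. Its Vgll4l libraries stood above all others, while those of Yap/Taz lay within the range of the controls. It rose 3.06-fold after Vgll4l knockdown (adjusted p = 2.0e-08) and was 2.63-fold higher there than after Yap/Taz knockdown (adjusted p = 1.3e-07).

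tuba1c (ENSDARG00000055216) moved in opposite directions, at lower counts. It had 16.2, 22.9, 20.3 and 17.8 in control, 77.2, 80.3, 72.3 and 79.3 after Vgll4l knockdown (1.96 in log2 units, adjusted p = 7.4e-07) and 7.33, 4.79, 8.66 and 8.03 after Yap/Taz knockdown (-1.32 in log2 units, adjusted p = 4.4e-05). No library of one group reached into another group. The fall after Yap/Taz knockdown did not pass with a pseudocount of 10 (log2 fold change -0.77).

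tuba2 (ENSDARG00000045014) had 25.9, 18.3, 27.1 and 33.2 in control, 3.82, 46.3, 1.95 and 6.45 after Vgll4l and 3.33, 0, 6.50 and 2.19 after Yap/Taz knockdown. Vgll4l replicate 2 was the highest of all 12 libraries while the other Vgll4l replicates were below every control. The gene fell after Yap/Taz knockdown (-3.06 in log2 units, adjusted p = 0.002) and did not pass after Vgll4l knockdown (-1.66, adjusted p = 0.057), where it passed without Vgll4l replicate 2 (-2.49, adjusted p = 0.0013) and without Yap/Taz replicate 2 (adjusted p = 0.041). tuba7l had 54.5 ± 10.9, 53.6 ± 11.3 and 50.1 ± 7.97 (mean ± SD, n = 4), and its groups overlapped. The low-count genes tuba1b, with means of 2.25, 14.2 and 4.66 in control, Vgll4l and Yap/Taz libraries, and tuba8l3, with 1.97, 7.32 and 9.27, rose after Vgll4l knockdown, and tuba8l3 also after Yap/Taz knockdown. The Vgll4l rise of tuba8l3 (adjusted p = 0.02) was lost without Vgll4l replicate 2 (adjusted p = 0.063) or control replicate 2 (adjusted p = 0.072). With a pseudocount of 10 none of these rises passed, at 0.99 for tuba1b and at 0.48 and 0.69 for tuba8l3. tuba1b also lay above control in all Yap/Taz libraries, with a log2 fold change of 0.98, just under the fold threshold.

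The β-tubulin genes changed which of them supplied the reads. Of 6 tested, 2 rose and 2 fell after Vgll4l knockdown, where 30.5% of all genes were higher and 40.9% lower. With Yap/Taz knocked down 1 rose and 2 fell, where 30.0% of all genes were higher and 38.7% lower. tubb2b (ENSDARG00000098591), whose mammalian counterpart is a β-tubulin of developing neurons, had 1421, 1306, 1395 and 1348 normalized counts in control, 8419, 7503, 8637 and 8967 after Vgll4l and 2552, 2502, 2511 and 2604 after Yap/Taz knockdown. The controls were lowest and the Vgll4l libraries highest, with no overlap among the groups. It rose 6.13-fold after Vgll4l knockdown (2.61 in log2 units, SE 0.05, adjusted p = 2.7e-14). After Yap/Taz knockdown it had 1.86 times the control level (log2 fold change 0.89, adjusted p = 5.2e-10), just under the fold threshold, which it passed with TMM scaling (1.03) or with edgeR (1.03). The gap between the knockdowns was 3.30-fold (adjusted p = 1.9e-12).

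tubb4b (ENSDARG00000002344), whose human counterpart is a β-tubulin of ciliary axonemes, had 1629, 1756, 1579 and 1582 in control, 1492, 1673, 1632 and 1595 after Vgll4l and 3766, 3746, 3586 and 3769 after Yap/Taz knockdown. Control and Vgll4l libraries overlapped and all Yap/Taz libraries lay above both. It rose 2.27-fold after Yap/Taz knockdown (1.18 in log2 units, SE 0.04, adjusted p = 1.6e-11). After Vgll4l knockdown the log2 fold change was -0.03 with a standard error of 0.04, and its sign was the other with TMM scaling (0.17).

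tubb5 (ENSDARG00000037997), a β-tubulin gene named for the broadly expressed class of mammals, had 1527, 1444, 1609 and 1384 in control, 58.8, 138, 40.1 and 59.9 after Vgll4l and 218, 224, 255 and 234 after Yap/Taz knockdown. The groups did not overlap, and the Vgll4l libraries were lowest, with replicate 2 above the other 3. It was 20.1-fold lower after Vgll4l knockdown (-4.46 in log2 units, SE 0.26, adjusted p = 1.2e-09) and 6.41-fold lower after Yap/Taz knockdown (-2.68, SE 0.26, adjusted p = 3.0e-07). The knockdowns differed 3.13-fold (adjusted p = 2.2e-05). tubb1, with 3.55 to 8.09 normalized counts in control, had 3 reads in all Vgll4l libraries together and none after Yap/Taz knockdown, where it was at least 10.6-fold lower. Such a bound sets a group without reads at 3 reads over its libraries. tubb6 had 3 reads over the control libraries and 2.29 to 13.2 normalized counts after Vgll4l knockdown (1.65 in log2 units, limma, adjusted p = 0.0073). The 13.2 was in Vgll4l replicate 2, without which the log2 fold change was 1.16. tubb2, with means between 2.20 and 7.25, passed in neither knockdown. Neither the falls of tubb1 nor the rise of tubb6 passed with a pseudocount of 10.

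**Figure D2:**
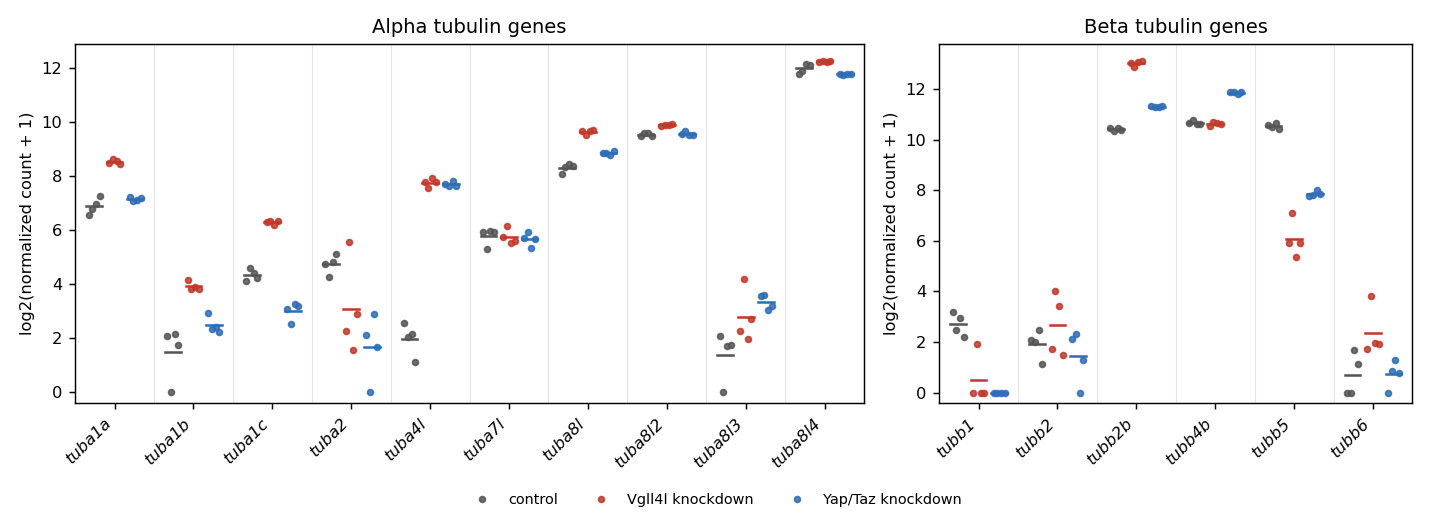
Normalized counts of the α-tubulin genes (left) and β-tubulin genes (right) in each library on the log2(normalized count + 1) scale, a point per library and a line at the mean of the 4 libraries of a group. tuba4l is low in the controls alone, tubb2b is highest after Vgll4l knockdown, tubb4b is highest after Yap/Taz knockdown, and tubb5 is lower in both knockdowns.

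Summed over the 6 β-tubulin genes, control libraries held 4504 ± 129 normalized counts (mean ± SD, n = 4), Vgll4l libraries 10067 ± 550.3 and Yap/Taz libraries 6494 ± 109. The ranges of the 3 groups did not overlap. The 10 α-tubulin genes summed to 5383 ± 552, 7360 ± 109 and 5145 ± 36.4. Here only the Vgll4l libraries lay apart, and the order of control and Yap/Taz turned over with TMM scaling, under which their means were 4991 and 5234. The ratio of the β to the α sum was 0.844 ± 0.102 in control, 1.37 ± 0.0780 after Vgll4l and 1.26 ± 0.0192 after Yap/Taz knockdown.

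In control clusters tubb2b, tubb4b and tubb5 took 30.4%, 36.3% and 33.1% of the β-tubulin counts on average. After Vgll4l knockdown tubb2b held 83.2% ± 1.96 (SD, n = 4), tubb4b 15.9% ± 1.38 and tubb5 0.754% ± 0.489. In Yap/Taz libraries tubb4b held 57.2%, tubb2b 39.1% and tubb5 3.58%. The α-tubulin shares moved less. That of tuba8l4 was 76.0% in control, 66.1% after Vgll4l and 68.1% after Yap/Taz knockdown, and that of tuba8l was 5.90%, 10.8% and 8.99%. tuba4l went from 0.0601% to 2.94% and 4.02%. These shares are of reads not divided by transcript length, so they follow a gene across groups and do not rank the genes by RNA level. Near-identical tubulin paralogs can also share or split 50-bp reads, so the level of each single paralog is uncertain to that extent.

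**Figure D3:**
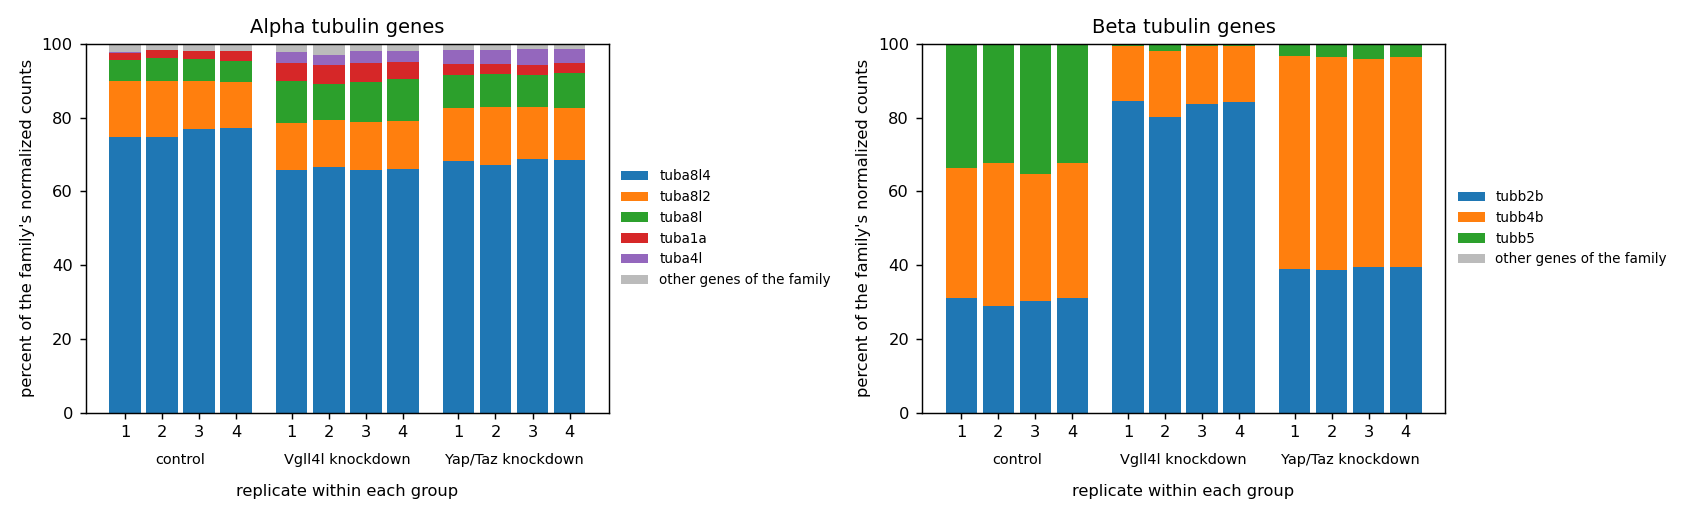
Share of each gene in the summed normalized counts of its family, α-tubulin (left) and β-tubulin (right), in percent, with a bar per library. In the β-tubulin panel the green part (tubb5) is 33.1% on average in control libraries and at most 4.01% in a knockdown library, and the blue part (tubb2b) is 83.2% on average after Vgll4l knockdown.

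γ-Tubulin is the template of new microtubules and sits in a ring with the tubgcp proteins. tubg1 (ENSDARG00000015610), its gene, had 500.2, 447, 425 and 419 normalized counts in control, 5.35, 26.4, 11.7 and 6.45 after Vgll4l and 167, 168, 159.5 and 188 after Yap/Taz knockdown. The 3 groups were fully apart, with the Vgll4l libraries lowest. It was 35.9-fold lower after Vgll4l knockdown (-5.30 in log2 units, SE 0.34, adjusted p = 2.9e-09), or 57.1-fold without Vgll4l replicate 2 (-5.73), and 2.62-fold lower after Yap/Taz knockdown (-1.39, SE 0.34, adjusted p = 0.0018).

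Of the 5 genes of γ-tubulin and its ring, 2 rose and 1 fell after Vgll4l knockdown, where 30.5% of all genes were higher and 40.9% lower. With Yap/Taz knocked down 1 rose and 2 fell, where 30.0% of all genes were higher and 38.7% lower. The genes called lower were tubg1 in both comparisons and tubgcp4, at low counts, after Yap/Taz knockdown. tubgcp5 (ENSDARG00000077442) had 8.09, 7.63, 16.9 and 9.47 in control, 26.7, 40.6, 38.1 and 35.0 after Vgll4l and 127, 125, 109.7 and 148 after Yap/Taz knockdown. Each group was above the one before it, and the rises were 3.34-fold (adjusted p = 1.2e-05) and 12.1-fold (adjusted p = 5.1e-09). tubgcp3 (ENSDARG00000029133), a core subunit of the small complex, had 84.2, 91.6, 78.9 and 86.4 in control, 112, 109.5, 86.0 and 138 after Vgll4l and 133, 181, 167 and 159.8 after Yap/Taz knockdown. The Yap/Taz libraries lay above the controls with a log2 fold change of 0.90, under the threshold that it passed with TMM scaling (1.03) or edgeR (1.04), and the Vgll4l libraries overlapped with both other groups.

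tubgcp4 (ENSDARG00000005374), of the ring complex, was nearly restricted to the Vgll4l libraries, with 39.0, 42.5, 30.3 and 38.7 against 1.62, 4.58, 3.38 and 0 in control and 0 in all 4 Yap/Taz libraries. It rose 15.7-fold after Vgll4l knockdown (adjusted p = 1.2e-06) and was at least 69.1-fold higher there than after Yap/Taz knockdown. Its fall from control to Yap/Taz rests on 7 control reads and did not pass with a pseudocount of 10. tubgcp2, the partner of tubgcp3, had means of 9.58, 5.94 and 10.6 and passed in neither knockdown.

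The δ-tubulin gene tubd1 (ENSDARG00000058219) had 2 reads in the 4 control libraries together. It had 137, 119.9, 179.8 and 182 normalized counts after Vgll4l knockdown and 15.3, 13.6, 17.3 and 14.6 after Yap/Taz knockdown. All knockdown libraries exceeded all controls, and the Vgll4l libraries exceeded the Yap/Taz libraries 10.2-fold (adjusted p = 2.1e-07). Both rises from control passed (adjusted p = 9.1e-11 and 9.5e-08). The ε-tubulin gene tube1 (ENSDARG00000096620) was at 0 to 3.24 in control and 0 to 1.95 after Vgll4l knockdown, and at 9.58 to 18.0 after Yap/Taz knockdown (2.56 in log2 units, adjusted p = 1.8e-04), a rise of low counts that did not pass with a pseudocount of 10 (0.95).

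The TTLL genes were mostly lower after Vgll4l knockdown. Of 9 tested, 7 fell and 2 rose there (median log2 fold change -4.70), where 40.9% of all genes were lower. With Yap/Taz knocked down 4 fell and 1 rose (median -0.75), where 38.7% of all genes were lower. Their summed normalized counts were 2345 to 2588 in control, 529.7 to 549 after Vgll4l and 1139 to 1173 after Yap/Taz knockdown. In the direct test 8 of the 9 differed between the knockdowns, 5 of them lower after Vgll4l knockdown. Of all genes 63.2% differed there, 33.2% lower after Vgll4l knockdown. The direct calls of ttll11 (1 Vgll4l and 10 Yap/Taz reads) and ttll12 (15 and 0) rest on few reads.

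ttll6 (ENSDARG00000054023), a glutamylase that lengthens glutamate chains and acts in zebrafish cilia, had 719, 793, 749.7 and 699 in control, 0, 25.5, 0 and 2.76 after Vgll4l and 447, 461, 447 and 456 after Yap/Taz knockdown. Among the Vgll4l libraries 2 were at 0 and replicate 2 held most of the reads, and the Yap/Taz libraries formed a tight group between these and the controls. With Vgll4l knocked down its log2 fold change was -7.87 (SE 0.76, adjusted p = 2.5e-07), and -8.89 without Vgll4l replicate 2. After Yap/Taz knockdown it had -0.71 (SE 0.76), under the fold threshold, with no overlap of the libraries. The standard error is shared by all groups and so carries the spread of the Vgll4l libraries. The knockdowns differed by -7.17 log2 units (adjusted p = 8.2e-07), or -8.19 without that replicate.

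ttll9 (ENSDARG00000062806), a glutamylase needed in mouse sperm flagella, ran the same course. It had 881, 847, 849 and 795 in control, 3.82, 17.9, 0.977 and 4.61 after Vgll4l and 501, 489, 511 and 498 after Yap/Taz knockdown. No group overlapped with another, and the Vgll4l libraries were close to 0. It was 123-fold lower after Vgll4l knockdown (-7.22 in log2 units, SE 0.46, adjusted p = 2.9e-09), or 269-fold without Vgll4l replicate 2 (-7.81), and did not pass after Yap/Taz knockdown (-0.75, SE 0.46). Between the knockdowns the difference was -6.47 (adjusted p = 1.2e-08).

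ttll1 (ENSDARG00000090778), the catalytic subunit of the mouse polyglutamylase complex, had 50.2, 47.3, 58.6 and 74.6 in control, 0.764, 4.72, 0.977 and 0.922 after Vgll4l and 158, 131, 150.1 and 148 after Yap/Taz knockdown. The Vgll4l libraries were near 0 and the Yap/Taz libraries above every control. It was 31.2-fold lower after Vgll4l knockdown (-4.54 in log2 units, adjusted p = 1.1e-08), or 65.0-fold without Vgll4l replicate 2 (-4.94), and 2.54-fold higher after Yap/Taz knockdown (1.35, adjusted p = 0.0017), and the direct difference was -5.89 (adjusted p = 9.3e-10).

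ttll4 (ENSDARG00000078935), which in mammals starts glutamate chains, was called higher with Vgll4l knocked down. It had 24.3, 30.5, 34.9 and 41.4 in control, 371, 314, 352 and 336 after Vgll4l and 24.6, 23.2, 23.1 and 18.2 after Yap/Taz knockdown. The Vgll4l libraries lay far above the others, which overlapped with each other. It rose 10.5-fold after Vgll4l knockdown (3.37 in log2 units, SE 0.17, adjusted p = 2.2e-10), and the log2 fold change after Yap/Taz knockdown was -0.52, under the threshold.

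ttll7 (ENSDARG00000062973), a glutamylase of β-tubulin in mammals, had 397, 395, 368 and 337 in control, 168, 154, 186 and 185 after Vgll4l and 29.3, 24.8, 23.8 and 23.4 after Yap/Taz knockdown. Here the Yap/Taz libraries were lowest, and no groups overlapped. It fell 14.8-fold after Yap/Taz knockdown (-3.84 in log2 units, SE 0.11, adjusted p = 1.6e-12) and 2.16-fold after Vgll4l knockdown (-1.11, adjusted p = 3.6e-07), the latter under the fold threshold with TMM scaling (-0.91) or edgeR (-0.91). The level after Vgll4l knockdown was 6.84-fold above that after Yap/Taz knockdown (adjusted p = 4.2e-11).

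ttll10 (ENSDARG00000090472), which in mouse elongates glycine chains, had 372, 406, 310.0 and 319.7 in control, 0.764, 5.66, 0 and 0 after Vgll4l and 9.33, 8.78, 10.8 and 6.57 after Yap/Taz knockdown. Both knockdowns were far below control, and the Vgll4l libraries below those of Yap/Taz. It was 39.7-fold lower after Yap/Taz knockdown (adjusted p = 1.9e-07), and its log2 fold change with Vgll4l knocked down was -7.57 (adjusted p = 2.9e-09), or -8.18 without Vgll4l replicate 2. The knockdowns differed by -2.40 (adjusted p = 4.1e-04), or by -3.01 without that replicate, and that difference did not pass with a pseudocount of 10 (-0.72).

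At lower counts, the glycylase gene ttll3 and the glutamylase gene ttll11 ran parallel to ttll10. ttll3 (ENSDARG00000053728) had 23.7 to 27.5 in control and 0 in all Vgll4l libraries, at least 37.5-fold lower, with 3 reads after Yap/Taz knockdown. ttll11 (ENSDARG00000060374) had 35.6 to 57.5 in control, 1 read in the Vgll4l libraries and 0.798 to 3.33 normalized counts after Yap/Taz knockdown. All 4 falls passed (adjusted p from 1.2e-09 to 2.4e-08). ttll12 had 1 control read, 0.977 to 6.61 normalized counts after Vgll4l and 0 after Yap/Taz knockdown, and its rise after Vgll4l knockdown (adjusted p = 8.2e-04) did not pass with DESeq2 (adjusted p = 0.064) or a pseudocount of 10 (0.36). The unlisted ttll5 gene (ENSDARG00000036793), of the same family, had means of 67.7 in control, 0 after Vgll4l and 2.78 after Yap/Taz knockdown, given without a test.

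**Figure D4:**
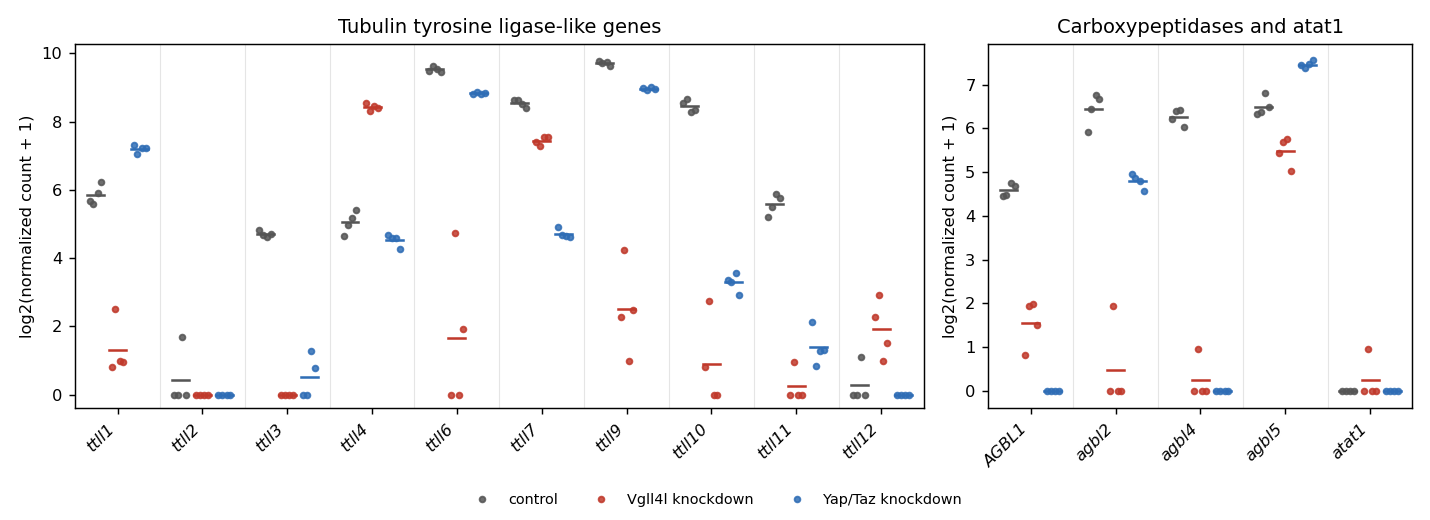
Normalized counts of the TTLL genes (left) and of the carboxypeptidase genes and atat1 (right) in each library on the log2(normalized count + 1) scale, a point per library and a line at the group mean. ttll6 and ttll9 stay high after Yap/Taz knockdown and are near 0 after Vgll4l knockdown, with Vgll4l replicate 2 above the other 3.

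The carboxypeptidase genes, whose products take glutamates off tubulin tails, fell throughout after Vgll4l knockdown. All 4 passed there (median log2 fold change -4.50), where 40.9% of all genes were lower. After Yap/Taz knockdown 3 fell (median -3.13), where 38.7% of all genes were lower. agbl2 (ENSDARG00000079983) had 59.9 to 107 in control, 3 reads in all Vgll4l libraries together (adjusted p = 4.8e-09) and 22.6 to 30.0 after Yap/Taz knockdown, where it was 3.29-fold lower than control (adjusted p = 0.0016). agbl4 (ENSDARG00000068050) had 63.9 to 84.6 in control, 1 read after Vgll4l knockdown and no read in the Yap/Taz clusters, which is at least 140.2-fold lower. AGBL1 (ENSDARG00000104384) had 21.0 to 25.9 in control, 0.764 to 2.93 after Vgll4l knockdown (adjusted p = 7.1e-08) and 0 after Yap/Taz knockdown, at least 42.8-fold lower. In each of these 3 genes all control libraries were above all knockdown libraries.

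agbl5 (ENSDARG00000045900), whose mammalian product removes the glutamate at the branch point, had 79.3, 82.4, 110.5 and 88.8 in control, 42.0, 51.0, 52.8 and 31.3 after Vgll4l and 173, 164, 178 and 187 after Yap/Taz knockdown. The groups did not overlap, with the Yap/Taz libraries highest. It was 2.04-fold lower after Vgll4l knockdown (-1.03 in log2 units, adjusted p = 4.8e-05), a call at the edge of the fold threshold that was lost with TMM scaling (-0.83), edgeR (-0.85) or a pseudocount of 10 (-0.89), and without control replicate 3 (-0.93) or Vgll4l replicate 4 (-0.87). After Yap/Taz knockdown the log2 fold change was 0.96 (adjusted p = 9.5e-05), which passed with TMM scaling (1.10), edgeR (1.08) or without control replicate 3 (1.06). The knockdowns differed 3.96-fold (adjusted p = 6.0e-08). atat1 (ENSDARG00000004472), the acetyltransferase of α-tubulin, had 1 read, in Vgll4l replicate 2, and 0 in the other 11 libraries.

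Of the 5 folding cofactors, 3 rose and 2 fell after Vgll4l knockdown, where 30.5% of all genes were higher and 40.9% lower. With Yap/Taz knocked down 2 rose and 3 fell, where 30.0% of all genes were higher and 38.7% lower. tbcb (ENSDARG00000068404), which binds α-tubulin, had 128, 108, 139.8 and 146 in control, 3397, 3007, 3783 and 3791 after Vgll4l and 659, 658, 652 and 679 after Yap/Taz knockdown. The Vgll4l libraries were highest and no groups overlapped. It rose 26.8-fold after Vgll4l knockdown (4.74 in log2 units, SE 0.09, adjusted p = 4.7e-14) and 5.07-fold after Yap/Taz knockdown (2.34, adjusted p = 2.6e-11), a difference of 2.39 between the knockdowns (adjusted p = 2.8e-11).

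tbca (ENSDARG00000016754), which binds β-tubulin, had 117, 77.8, 116 and 88.8 in control, 668, 659, 646 and 640.5 after Vgll4l and 819, 891, 811 and 849 after Yap/Taz knockdown. Both knockdowns were well above control, and the Yap/Taz libraries were the higher of the pair. The rises were 6.54-fold (log2 fold change 2.72, adjusted p = 3.7e-11) and 8.44-fold (3.08, adjusted p = 1.2e-11), and the difference between the knockdowns (-0.37, SE 0.11) was under the fold threshold.

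tbce (ENSDARG00000099921) and tbcd (ENSDARG00000098749), which act together when the dimer is joined, went down. tbce had 563, 522, 448 and 442 in control, 52.0, 42.5, 44.9 and 53.4 after Vgll4l and 57.3, 63.1, 54.9 and 50.4 after Yap/Taz knockdown. The knockdown libraries overlapped with each other and not with control. It was 10.2-fold lower after Vgll4l knockdown (-3.33 in log2 units, adjusted p = 1.5e-11) and 8.75-fold lower after Yap/Taz knockdown (-3.10, adjusted p = 2.7e-11). tbcd had 68.8 ± 11.7 in control, 20.4 ± 4.86 after Vgll4l and 19.1 ± 1.88 after Yap/Taz knockdown (mean ± SD, n = 4), with log2 fold changes of -1.72 and -1.79 (adjusted p = 3.2e-06 and 2.3e-06). tbcc (ENSDARG00000022918), which triggers release of the finished dimer, had 1.53 to 14.2 in control and rose to 16.6 to 24.4 after Vgll4l knockdown (adjusted p = 6.6e-04). Over the 4 Yap/Taz libraries it had 4 reads and fell (adjusted p = 0.0019), a call lost with a pseudocount of 10.

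**Figure D5:**
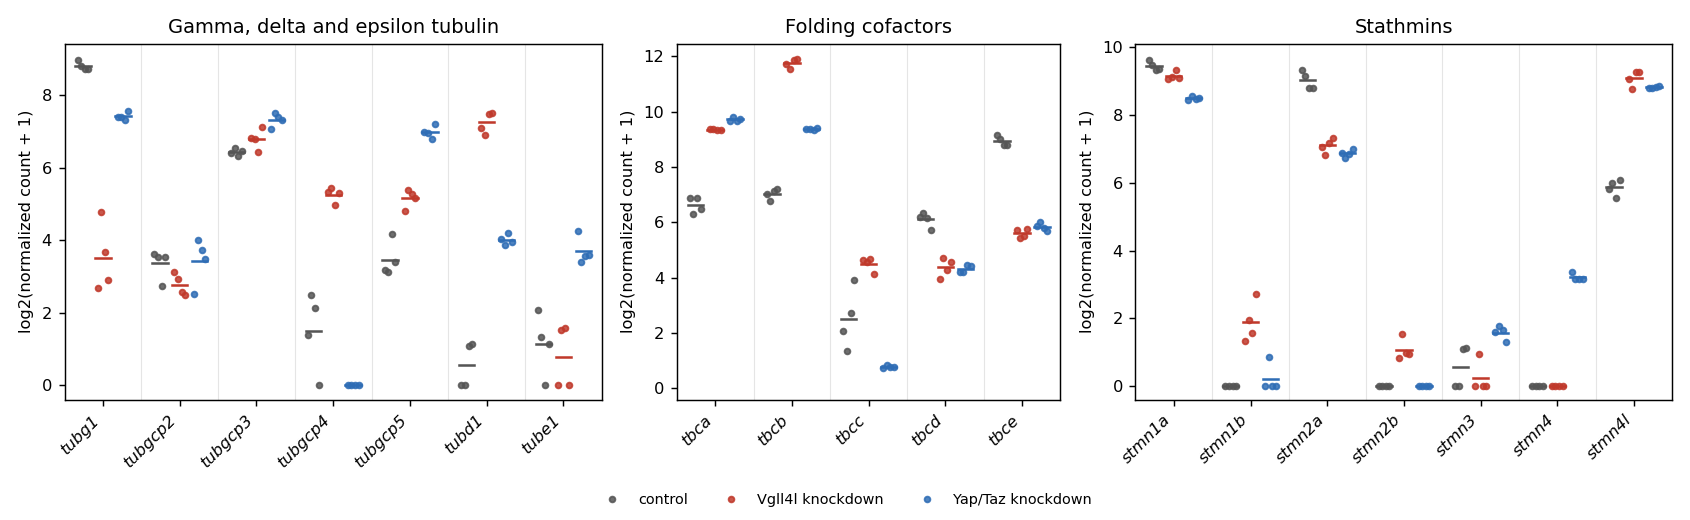
Normalized counts of the γ-, δ- and ε-tubulin and γ-tubulin complex genes (left), the folding cofactors (middle) and the stathmins (right) in each library on the log2(normalized count + 1) scale, a point per library and a line at the group mean. tbca and tbcb are higher and tbcd and tbce lower in both knockdowns, and tubd1 is highest after Vgll4l knockdown.

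Stathmins bind free tubulin dimers and keep them out of microtubules. stmn1a (ENSDARG00000004169) had 787, 709.5, 641 and 657 in control, 541, 559, 647 and 550.2 after Vgll4l and 346, 374, 357 and 359.8 after Yap/Taz knockdown. The Yap/Taz libraries were below all others, yet the log2 fold change of -0.95 (SE 0.08) was under the fold threshold, and the Vgll4l libraries overlapped with the controls (-0.28). stmn2a (ENSDARG00000033234), of the neuronal stathmins, had 646, 572, 449.8 and 444 in control, 134, 113, 145 and 159 after Vgll4l and 118, 105, 115 and 126 after Yap/Taz knockdown. The knockdown libraries overlapped with each other and lay below every control. It fell 3.83-fold (adjusted p = 8.5e-09) and 4.54-fold (adjusted p = 2.6e-09).

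stmn4l (ENSDARG00000043932), another gene of the neuronal type by its name, had 55.0, 62.6, 46.2 and 67.5 in control, 541, 438, 615 and 618 after Vgll4l and 441, 442, 458 and 466 after Yap/Taz knockdown. All knockdown libraries lay far above control, and those of Vgll4l overlapped with those of Yap/Taz. The rises were 9.56-fold (log2 fold change 3.24, adjusted p = 2.5e-11) and 7.81-fold (2.96, adjusted p = 5.9e-11). stmn4 (ENSDARG00000030106) was at 0 in all control and Vgll4l libraries and at 7.94 to 9.33 with Yap/Taz knocked down, at least 8.33-fold higher. stmn1b was at 0 in control and 1.53 to 5.53 after Vgll4l knockdown, at least 2.97-fold higher, and neither of these rises of low counts passed with a pseudocount of 10. Among 12 markers of neural ectoderm and early neurons, 5 rose and 2 fell after Vgll4l knockdown, where 30.5% of all genes were higher and 40.9% lower. With Yap/Taz knocked down 3 rose and 5 fell, where 30.0% of all genes were higher and 38.7% lower. The markers summed to 1402 to 1761 in control, 2021 to 2166 after Vgll4l and 2708 to 2805 after Yap/Taz knockdown. In the Yap/Taz libraries most of that sum was sox3 (mean 2571), and the other 11 markers summed to 1181 to 1585 in control, 1897 to 2024 and 181 to 212. Only ncam1a among them was at 0 in a whole group, that of Yap/Taz, and their part in the levels of the neuronal genes was not tested.

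Other genes of the tubulin pathway were counted from lists written from general knowledge. Each count is to be read beside the shares of all genes, 30.5% higher and 40.9% lower for Vgll4l and 30.0% higher and 38.7% lower for Yap/Taz. Of 19 genes of the chaperonin CCT and its helpers, 11 rose and 1 fell after Vgll4l knockdown (median log2 fold change 1.48), and 6 rose and none fell with Yap/Taz knocked down (median 0.63). cct8, a CCT subunit, had 102 ± 17.1 in control, 2048 ± 194 after Vgll4l and 358 ± 20.7 after Yap/Taz knockdown (mean ± SD, n = 4) and rose by 4.32 and 1.81 log2 units (adjusted p = 7.4e-13 and 2.8e-09). cct2, another subunit, had 9.10 ± 2.22, 34.6 ± 10.5 and 154 ± 10.9 in the same order, and its rise after Yap/Taz knockdown was 3.96 (adjusted p = 6.5e-10). TBCEL, related to tbce, was at 0 in control and Yap/Taz libraries and had 72.3 ± 6.04 after Vgll4l knockdown.

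Of 9 genes listed as other tubulin-modifying enzymes, 1 rose and 5 fell after Vgll4l knockdown (median -2.15), and 3 rose and 2 fell with Yap/Taz knocked down (median -0.44). MATCAP2, a metalloprotease gene of this list, had 501 ± 31.0 in control and 27.6 ± 9.58 after Vgll4l knockdown. It fell there (-4.20 in log2 units, limma, adjusted p = 7.7e-11). After Yap/Taz knockdown it had 368 ± 17.4, which did not pass. The acetyltransferase gene nat10 fell after Vgll4l knockdown (-3.03) and rose after Yap/Taz knockdown (1.39), with means of 214, 26.2 and 560.3. ttc5, which in mammals guides the decay of tubulin mRNAs and so is listed here loosely, rose in both (1.74 and 2.92). It is the only rise of this list after Vgll4l knockdown. Its rises are counted among the chaperonin helpers as well. Of the deacetylases, sirt2 fell after Vgll4l knockdown (-3.76, or -4.39 without Vgll4l replicate 2) and rose after Yap/Taz knockdown (1.74), and hdac6 fell after Yap/Taz knockdown (-1.45) with -0.72 after Vgll4l knockdown, which did not pass.

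Among 19 genes that attach γ-tubulin or nucleate microtubules, 8 rose and 6 fell after Vgll4l knockdown (median 0.56), and 4 rose and 9 fell with Yap/Taz knocked down (median -0.53). The centrosomal scaffold gene akap9 had 1875 ± 113 in control, 19.9 ± 27.0 after Vgll4l and 585 ± 29.6 after Yap/Taz knockdown and fell in both (-7.22 and -1.68, adjusted p = 1.1e-08 and 0.0089). Vgll4l replicate 2 held 60.4 of it and the other Vgll4l libraries 6.45 on average, and without that replicate the log2 fold change was -7.98. nin, which anchors microtubules at centrioles, had 169 ± 19.3 and 1.68 ± 1.97 and fell after Vgll4l knockdown (-6.35, adjusted p = 7.0e-09), with 162 ± 10.4 after Yap/Taz knockdown. cdk5rap2, which binds the γ-tubulin ring, was at 0 in control and had 79.1 ± 7.16 after Yap/Taz knockdown. Augmin branches microtubules, and its subunits haus1 to haus7 are given here, while haus8, also listed, is given no value. With Vgll4l knocked down haus1, haus3 and haus4 rose (4.46, 4.02 and 3.13) and haus5 and haus7 fell (-2.30 and -1.70). With Yap/Taz knocked down haus3 and haus6 rose (1.57 and 4.36) and haus1, haus4, haus5 and haus7 fell (-1.31, -1.38, -6.50 and -2.80). haus2 passed in neither, and haus3 had a mean of 0.282 in control. mid1ip1a, a partner of the microtubule protein Mid1, rose after Vgll4l knockdown (6.05) from 36.1 to 2359.9.

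Of 7 severing genes, 3 rose and 1 fell after Vgll4l knockdown (median 0.83), and 4 rose and 1 fell with Yap/Taz knocked down (median 1.63). katna1, the catalytic subunit of katanin, rose (5.73 and 2.92) from 2.92 to 204 and 28.0. fignl1, an ATPase gene, rose after Vgll4l knockdown (6.75), and katnal2 after Yap/Taz knockdown (6.00). KATNBL1 rose in both (3.07 and 4.01).

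Of 36 genes of plus-end and lattice proteins, 13 rose and 12 fell after Vgll4l knockdown (median -0.06), and 15 rose and 9 fell with Yap/Taz knocked down (median 0.58). map2, a lattice protein of dendrites, had 8.08 ± 1.13 in control, 848 ± 98.7 after Vgll4l and 187 ± 21.1 after Yap/Taz knockdown and rose in both (6.55 and 4.37). mapre1a, an end-binding protein gene, was at 0 in control and had 131 ± 10.6 after Yap/Taz knockdown. mtus2a fell in both (-7.00 and -8.80) from 526 to 4.16 and 0.200, camsap1a, a minus-end binding protein gene, after Vgll4l knockdown (-6.47) and map1ab after Yap/Taz knockdown (-6.50). Vgll4l replicate 2 was the highest of its group for mtus2a (11.3) and camsap1a (7.55). Without that replicate their Vgll4l log2 fold changes were -7.54 and -7.00. clip3 rose after Vgll4l knockdown (5.77). These lists were counted and not tested as lists.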

How the data were processed

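RNA of 12 dissected DFC clusters was measured by RNA-seq, and samples were grouped by their titles. The authors used the SMART-Seq v4 kit for extraction and amplification. Single-end reads of 50 bp were mapped by STAR on GRCz10, assigned to Ensembl genes by featureCounts and scaled by DESeq2. Versions of these tools are not given in the sources used here. The kit does not mark strand, so a gene and an antisense partner cannot be told apart, and reads of near-identical tubulin genes can be split or lost. The deposited values are a normalized count signal headed TPM. They do not sum to 1 fixed total, and 100% of the values above 0 are whole multiples of a step per library (tolerance 0.001), so they are reads divided by a size factor. Columns with the authors' log2 fold changes and adjusted p-values of each knockdown against control were not used.

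Values were taken as log2(normalized count + 1) and tested with limma 3.58.1 (limma-trend, R 4.3.3) in a fit of all 12 libraries without a replicate block, over the 17609 genes with a mean of at least 1, with Benjamini-Hochberg adjustment over these genes per comparison. The thresholds were 0.05 for the adjusted p and 1 for the size of the log2 fold change. The spread is shared by the 3 groups. Fold changes on this scale understate the change of low genes. Ratios are of mean normalized counts, and where a group is at 0 the bound uses a floor of 3 reads over the group. No ratio is given where a group has 1 to 3 reads.

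The fit was run on simulated data with the same spread for all genes and changes in few genes, none of them near 0. Changes of 1.5, 2 and 3 log2 units were recovered in 67 of 67, 67 of 67 and 66 of 66 genes, with 5 false calls. Most real genes differ, and 1 Vgll4l library stands apart. So the simulation does not bear on calls at low counts or on calls that depend on that library. As alternatives the pseudocount was set to 0.5 or 10, the filter was dropped or raised to a mean of 10, and TMM, edgeR 4.0.16 or DESeq2 1.42.0 on the recovered reads took the place of the scaling or the test. Further ones were the compared groups alone, a replicate block, the mean of near-identical control libraries, a fold threshold of 2 in log2 units or none, and omission of each library. No pair of libraries agreed within counting noise, so all were counted. The median ratio of spread to noise was 1.55 to 8.52 in Vgll4l pairs and 1.41 to 1.65 in Yap/Taz pairs. Control replicates 1 and 2 were at 1.59, 3 and 4 at 1.43, and the pairs across these at 3.67 to 5.16. This ratio cannot show whether the libraries of a group are independent clusters. Small spreads of the Yap/Taz group are close to counting noise. Tables and figures were made with matplotlib 3.10.9, scipy 1.17.1, pandas 2.3.3 and numpy 2.4.6 in Python 3.11.15. Genes were chosen by symbol, and each library's values are given where the highest group mean reached 100, and for a few others. Other genes named are the knocked-down genes, markers, and per pathway list up to 2 rises and 2 falls whose higher group mean reached 50. 1 gene that this rule names is not reported here. The rule for the 50 genes uses symbols alone, while the other genes named and the lists were chosen with earlier results of these data known. Markers of endoderm, muscle and germ plasm were counted too, with 7, 6 and 5 tested, beside the same shares of all genes as above. These markers had 3, 4 and 2 rises and 2, 0 and 2 falls after Vgll4l knockdown, and 4, 1 and 2 rises and 0, 2 and 2 falls after Yap/Taz knockdown. The endoderm sums were 22198 to 24143 in control, 14714 to 16145 in Vgll4l and 19530 to 19859 in Yap/Taz libraries. Most of the control sum was sox17, also a DFC marker, with means of 18140, 8628 and 9686 in the same order. Among the other endoderm markers foxa2, gata5 and gata6 rose in both knockdowns. foxa1 rose after Yap/Taz knockdown, foxa3 fell after Vgll4l knockdown, and cxcr4a passed in neither. The sums for muscle were 923 to 1007, 2837 to 3143 and 236 to 273. For germ plasm they were 684 to 855, 356 to 405 and 996 to 1042. The part of all these cell types in the results was not tested. The omission of libraries for pathway genes, the neural sum without sox3 and the naming of the augmin subunits haus1 to haus7 were chosen after seeing the data. No coordinates or sequences are given, since the only reference used, of GRCz12tu, is not of the authors' build.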

Additional observations from a re-analysis of the deposited data

Results flagged for a closer look

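Of 89 groups of 4 libraries with a mean of at least 10 normalized counts, 5 held a library whose gap to the nearest other exceeded Dixon's critical value for 4 samples. Chance gives about 1 such group in 20. tuba2 had 46.3 normalized counts in Vgll4l replicate 2, where the other Vgll4l libraries had 1.95 to 6.45. tuba7l had 38.1 in control replicate 2 and 59.2 to 60.9 in the other control libraries. tubb4b had 3586 in Yap/Taz replicate 3 and 3746 to 3769 in the others of that group. tube1 had 18.0 in Yap/Taz replicate 1 and 9.58 to 10.9 in the others. stmn1a had 647 in Vgll4l replicate 3 and 541 to 559 in the others. Among these genes, a call changed without the library in question only for tuba2 after Vgll4l knockdown, which passed without Vgll4l replicate 2 (log2 fold change -2.49, adjusted p = 0.0013, limma).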

How the results depend on the processing

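Leaving out each library in turn gave 34 to 36 genes called after Vgll4l knockdown, 28 to 30 after Yap/Taz knockdown and 26 to 28 between the knockdowns. Of all genes 70.9% to 71.6%, 68.1% to 68.8% and 62.8% to 63.2% passed there. With a log2 fold change of at least 2 the counts were 22, 19 and 15, beside 53.2%, 50.5% and 44.9% of all genes. With a pseudocount of 10 they were 28, 21 and 19, beside 58.4%, 56.1% and 49.9%. There 9 genes in place of 14 were higher in the Vgll4l than in the Yap/Taz libraries, and 4135 in place of 5285 of all 17609 genes. TMM scaling moved the α-tubulin sum to 7837 after Vgll4l and 5234 after Yap/Taz knockdown, and the β-tubulin sum to 4167 in control, 10692 after Vgll4l and 6606 after Yap/Taz knockdown. Replicate numbers did not pair the libraries (12 correlations of deviations between same-numbered libraries from -0.0555 to 0.0246). A replicate block gave 35, 28 and 27 genes called, beside 71.3%, 68.7% and 63.2% of all genes.

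Log2 fold changes that changed sign were all of values that passed in no direction. After Vgll4l knockdown tuba7l went from -0.02 to 0.18 (TMM), 0.16 (edgeR) and 0.18 (edgeR without a filter), with -0.18 to 0.056 over omitted libraries, and tubb4b from -0.03 to 0.17 (TMM), 0.17 (edgeR) and 0.18 (edgeR without a filter), with -0.057 to 0.000109. After Yap/Taz knockdown tuba7l went from -0.11 to 0.025 (TMM) and 0.0018 (edgeR without a filter), stmn1b from 0.21 to -0.17 (DESeq2), and tubb6 from 0.02 to -0.012 (pseudocount 10), -0.28 (edgeR), -0.27 (edgeR without a filter) and -0.39 (DESeq2). Over omitted libraries tubb6 ran from -0.21 to 0.36, tuba8l2 from -0.011 to 0.044 and tubgcp2 from -0.14 to 0.38. Between the knockdowns tbcd ran from -0.044 to 0.21 and tuba7l from -0.044 to 0.17. The causes were not tested. Control libraries are the shallowest, and genes under about 10 normalized counts rest on few reads.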

Other observations

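The STMND1 gene (ENSDARG00000102611), named from a reference list only, had mean normalized counts of 199 in control, 1.17 in Vgll4l and 102 in Yap/Taz libraries, given without a test, and the further tube1 gene (ENSDARG00000043982) was at 0 in all of them. Of the 17 tubulin genes that fell after Vgll4l knockdown, 11 (64.7%) had their highest Vgll4l level in replicate 2, as did 59.5% of the 7202 genes that fell among all genes tested.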
